A study of Homo sapiens with 33 samples.

Results

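The comparison set 2 base editors against each other in HEK293T cells, a human embryonic kidney line, when both carried the same guide RNA against the RNF2 locus. It used 6 RNA-seq libraries of the 33 in the series, chosen by their labels: 3 from cells given Target-AID with the RNF2 guide and 3 from cells given ABEmax with that guide. All 14613 genes that passed the filter on low counts were tested. In each group, 37.5 ug of a plasmid encoding the editor joined through P2A to EGFP was transfected with 12.5 ug of guide plasmid, and cells positive for GFP were sorted 36 to 40 h later under the label All GFP. Further groups were used for reference, each of 3 libraries: nCas9, the nickase without a deaminase, with the RNF2 guide; Target-AID and ABEmax with the HEKsite2 guide; and a GFP control. In total the series had 11 groups, the others being nCas9 with the HEKsite2 guide and miniABEmax-V82G and SpACE with either guide. The design holds no Target-AID or ABEmax library without a guide, and the labels do not say whether replicates came from separate cultures, so p-values measure the spread between these libraries, which may be technical.

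Base editors change single DNA bases without cutting both strands. A Cas9 nickase, led by the guide RNA, opens the target DNA, and a fused deaminase acts on the exposed strand. ABEmax carries an adenine deaminase derived from bacterial TadA and converts A to G, while Target-AID carries the cytidine deaminase PmCDA1 of the sea lamprey and converts C to T. Cells usually remove uracil from DNA by base excision repair, which begins with the glycosylase UNG. RNF2 itself encodes RING1B, the ubiquitin ligase subunit of Polycomb repressive complex 1.

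Total counts were between 9110646 and 9571720 in the Target-AID libraries and between 7419401 and 8116856 in the ABEmax libraries. All 11 HEK293 markers examined had counts in both groups. One library stood apart: counts of Target-AID replicate 3 differed from those of replicates 1 and 2 by a chi-square of 20.7 and 12.3 per degree of freedom, against 3.01 between replicates 1 and 2 and 1.65 to 3.64 among the ABEmax libraries. RN7SL1, the RNA of the signal recognition particle, stood at 24539 counts per 1000000 (CPM) in that library, at 11241 and 13411 in the other Target-AID libraries and between 12490 and 16450 in ABEmax. RPPH1, the RNA of ribonuclease P, stood at 15515 CPM there, at 5568 and 7463 in the other Target-AID libraries and between 6770 and 8623 in ABEmax. Both RNAs also varied among the nCas9 libraries with the RNF2 guide. There RN7SL1 stood at 14672, 20099 and 18331 CPM and RPPH1 at 7549, 12538 and 12033. Where the lists described below turned on this library, the counts without it are given beside them.

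Of the 14613 genes, 3810 (26.1%) differed between the editors at an adjusted p under 0.05 (edgeR quasi-likelihood test, Benjamini-Hochberg). Target-AID was higher for 2076 (14.2%) and ABEmax for 1734 (11.9%). Most differences were small: 1513 of the genes higher in Target-AID and 1347 of those lower differed by less than 1.5-fold. Differences of at least 2-fold were called for 280 genes (1.92%) toward Target-AID and 198 (1.35%) toward ABEmax, and of at least 8-fold for 128 and 30. The estimate of spread came from all 33 libraries, and when only the 6 libraries compared entered the fit 2070 genes were called. Without Target-AID replicate 3 the number was 3973 of 14801 genes (26.8%), of which 3154 were called in the same direction with all libraries. With nCas9 as the shared reference, 5146 genes (35.2%) were called in Target-AID, 2837 higher (19.4%) and 2309 lower (15.8%). In ABEmax 1632 (11.2%) were called, 951 higher (6.51%) and 681 lower (4.66%), and leaving out 1 library gave 827 (without nCas9 replicate 2) to 1311. All 3 libraries of one editor lay above all 3 of the other for 4944 genes (33.8%).

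**Figure D1:**
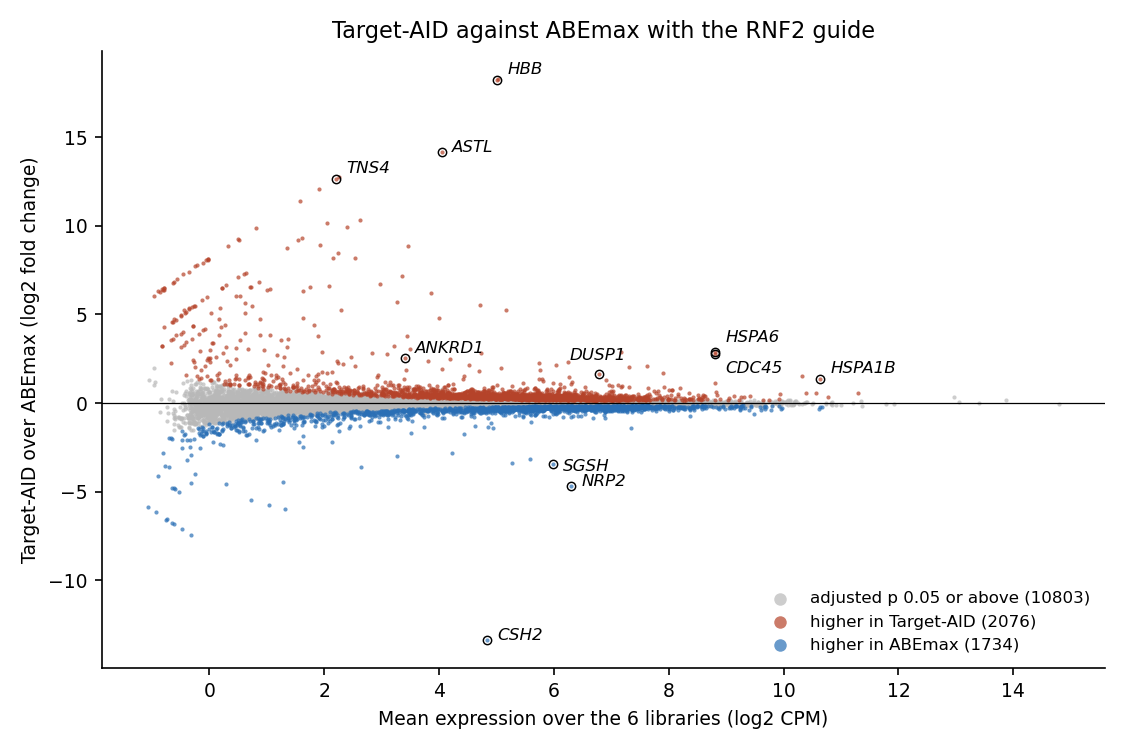
Log2 fold change of Target-AID over ABEmax with the RNF2 guide (vertical axis) against mean log2 CPM over the 6 libraries (horizontal axis), 1 point per gene, red for the 2076 genes called higher in Target-AID, blue for the 1734 called lower and grey for the other 10803. Red points reach far above the rest at the left and centre, where ABEmax had few or no counts and the plotted fold depends on the prior count of the fit, while CSH2 and NRP2 lie far below.

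The largest differences came from genes with counts in Target-AID and next to none in ABEmax. Reads assigned to HBB, the adult beta globin gene (chr11:5225464-5229395, minus strand, GENCODE 29 on GRCh38), reached 5520.1, 4295 and 3649 CPM in the 3 Target-AID libraries. All 3 ABEmax libraries were at 0, so the groups did not overlap and HBB was at least 36258-fold higher, taking 3 counts over the ABEmax group as the floor. HBD, the neighbouring delta globin gene (chr11:5232678-5243657, minus strand), stood at 5712, 4557 and 3792 CPM against 0 in all 3 ABEmax libraries. The 2 genes are close copies, and how reads shared between them were assigned is not given in the sources used here, so the split between them is uncertain. Whether these reads came from the cells' own globin genes or from plasmid sequence was not tested. Of the other globin genes, HBG1, HBG2, HBA1, HBA2 and HBM were at 0 in Target-AID, HBE1 had 10 counts against 0 and HBQ1 had 53 against 27. The erythroid marker AHSP, which encodes a chaperone of alpha globin, was also at 0 in both editors.

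The other leading genes came from unrelated families. ASTL, an oocyte protease of the astacin family, stood at 1219.6, 1021 and 845 CPM in Target-AID against 0, 0.121 and 0 in ABEmax. That is 28949 counts against 1, 24929-fold by ratio (95% counting interval 4474 to 984670). TNS4, a focal adhesion protein of the tensin family, stood at 115, 90.7 and 71.5 CPM against 0 throughout ABEmax, at least 747-fold higher. Both genes were thus read in every Target-AID library and in at most 1 ABEmax library. SGCD, the delta sarcoglycan of muscle, was at least 316-fold higher, and TNNT2, cardiac troponin T, had 1819 counts against 1. CRYBA4, a lens crystallin, had 3468 counts against 2, and DUOXA1, a maturation factor of the dual oxidase DUOX1, had 2632 against 2. The long noncoding RNA LINC00879 (2828 counts against 0) and the olfactory receptor gene OR2B3 (1736 against 0) completed the 10 largest rises. DESeq2 did not call these last genes, with adjusted p = 0.21 for LINC00879 and 0.244 for OR2B3.

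Together the 128 genes at least 8-fold higher held 359314 counts in the Target-AID libraries and 1003 in the ABEmax libraries. ABEmax had 3 counts or fewer for 88 of them and 0 for 30. Genes with almost no ABEmax counts met the filter because of their Target-AID counts alone. They had to differ, and their number is a description. In the HEKsite2 libraries, which share no sample with these, all 128 were called in the same direction and 114 again reached 8-fold. Over all tested genes 13.9% were called higher there. The mean level in Target-AID was also more than 2-fold above that in every miniABEmax-V82G, SpACE, nCas9 and GFP group for all 128. The filter on low counts used all 33 libraries, so these counts too are a description. Of the 128 genes, 110 were matched to the GENCODE 29 annotation, on 22 chromosomes, and 92 (83.6%) of these were protein coding. Over all tested genes 13789 were matched, on 23 chromosomes, and 93.1% were protein coding. Among the 110, 6 lay within 100 kb of another of the set, a count not made over all tested genes. PARP14, an interferon-induced ADP-ribosyltransferase, was among them at a very low level, with 47 counts against 1. Liver markers were also counted: SERPINA1 had 34 counts against 0 and APOB 32 against 2, while APOA2, APOC3, APOH, TTR, FGA and FGB were at 0 in Target-AID, and the summed level of the 15 liver markers was 3.03 to 4.6 CPM in Target-AID and 1.97 to 3.36 in ABEmax.

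In the other direction, CSH2, a chorionic somatomammotropin gene of the growth hormone cluster (chr17:63872012-63873766, minus strand), stood at 1982, 1935 and 2161 CPM in ABEmax and at 0.107, 0.317 and 0.107 in Target-AID. It was the Target-AID libraries that differed from the rest of the series here, since CSH2 stood between 1829 and 2118 CPM in nCas9 with the RNF2 guide and averaged 3152 CPM in GFP. The growth hormone genes are close copies of one another, and CSH1 and CSHL1 were at 0 in both editors, so the assignment to CSH2 is uncertain. Whether these reads came from the cells' own gene or from plasmid sequence was not tested. The log2 fold change was -13.36 ± 0.22 (SE, adjusted p = 1.05e-36).

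The other genes high in ABEmax were low in both Target-AID and nCas9. NRP2, neuropilin 2, a receptor for semaphorins and VEGF, stood at 416, 270.1 and 522 CPM in ABEmax, at 16.2, 15.8 and 15 in Target-AID and at 11.8, 13.0 and 13.2 in nCas9. The ABEmax libraries spread over nearly 2-fold but all lay far above the rest, with a log2 fold change of -4.68 ± 0.15 (adjusted p = 5.59e-27). SGSH, the lysosomal sulfamidase, stood at 214, 179 and 236 CPM in ABEmax against 19.1, 18.5 and 19.2 in Target-AID (log2 fold change -3.47 ± 0.10, adjusted p = 1.30e-27). FRMD4A, a scaffold protein of epithelial polarity, and MAST3, a microtubule-associated kinase, differed by -3.36 and -3.19 on the log2 scale. ABHD1 (-3.62), the adenylyl cyclase gene ADCY4 (-5.96), the taste receptor gene TAS1R1 (-4.46), PNLDC1 (-3.02), an RNA exonuclease gene, and FAM230B (-5.75) made up the rest of the 10 largest falls. Of these 9 genes only PNLDC1, at 2.9 to 3.52 CPM in Target-AID and 5.36 to 7.3 in nCas9, was called lower, and SGSH called higher, in Target-AID than in nCas9. With the HEKsite2 guide, 28 of the 30 genes at least 8-fold lower were again called lower. BAG5, a co-chaperone, followed the same pattern at a smaller size: 264, 248 and 283 CPM in ABEmax, 106, 95.1 and 97.6 in Target-AID and 104 to 116 in nCas9 (log2 fold change -1.41 ± 0.07, adjusted p = 4.87e-20).

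The heat shock response raises cytosolic chaperones when proteins misfold, and is driven by HSF1, which binds repeated GAA and TTC units in promoters. Of 36 chaperone and heat shock genes, all tested, 16 rose and 3 fell in Target-AID relative to ABEmax, with a median log2 fold change of 0.16 against -0.0029 over all genes. Leaving out Target-AID replicate 3 gave the same counts. Called members made up 52.8% of this list, against 26.1% of all tested genes (14.2% higher and 11.9% lower). This list and those below were chosen with earlier results of these data known. Their shares called are therefore descriptions. HSPA6, a strictly inducible HSP70, stood at 1393, 1219 and 1031 CPM in Target-AID, at 164, 169 and 169.8 in ABEmax and at 11.8, 11.5 and 13.3 in nCas9. Each editor was thus above the nickase and Target-AID above ABEmax, with no overlap (log2 fold change 2.86 ± 0.11 between editors, adjusted p = 4.24e-24). GFP averaged 3.58 CPM. Its near-identical copy HSPA7 differed by 3.04 ± 0.20, and reads of the 2 may have been exchanged.

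DNAJB1, the HSP40 partner of HSP70, stood at 2542, 2130 and 1866 CPM in Target-AID, 744, 757 and 749.5 in ABEmax and 207, 194 and 190.2 in nCas9. HSPA1B, the main inducible HSP70, stood at 2615, 2582 and 2428 CPM in Target-AID, 976, 1021 and 1019 in ABEmax and 273, 278 and 288 in nCas9. Both genes showed the same order of the 3 groups as HSPA6. Between editors the log2 fold changes were 1.54 ± 0.08 for DNAJB1 (adjusted p = 1.03e-19) and 1.34 ± 0.06 for HSPA1B (adjusted p = 9.96e-22). Few reads were assigned to HSPA1A, the near-identical neighbour of HSPA1B (187 counts in Target-AID and 90 in ABEmax), so these 2 loci cannot be told apart. HSPA4L, an HSP110-type nucleotide exchange factor, rose by 0.69, HSP90AA1, the inducible HSP90, by 0.54, BAG3, a co-chaperone of selective autophagy, by 0.51, and CRYAB, the small heat shock protein alpha-B crystallin, by 0.86 (adjusted p = 0.0704 without Target-AID replicate 2). Besides BAG5, the testis-enriched HSPA2 (-0.60) and DNAJB6 (-0.31) fell.

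**Figure D2:**
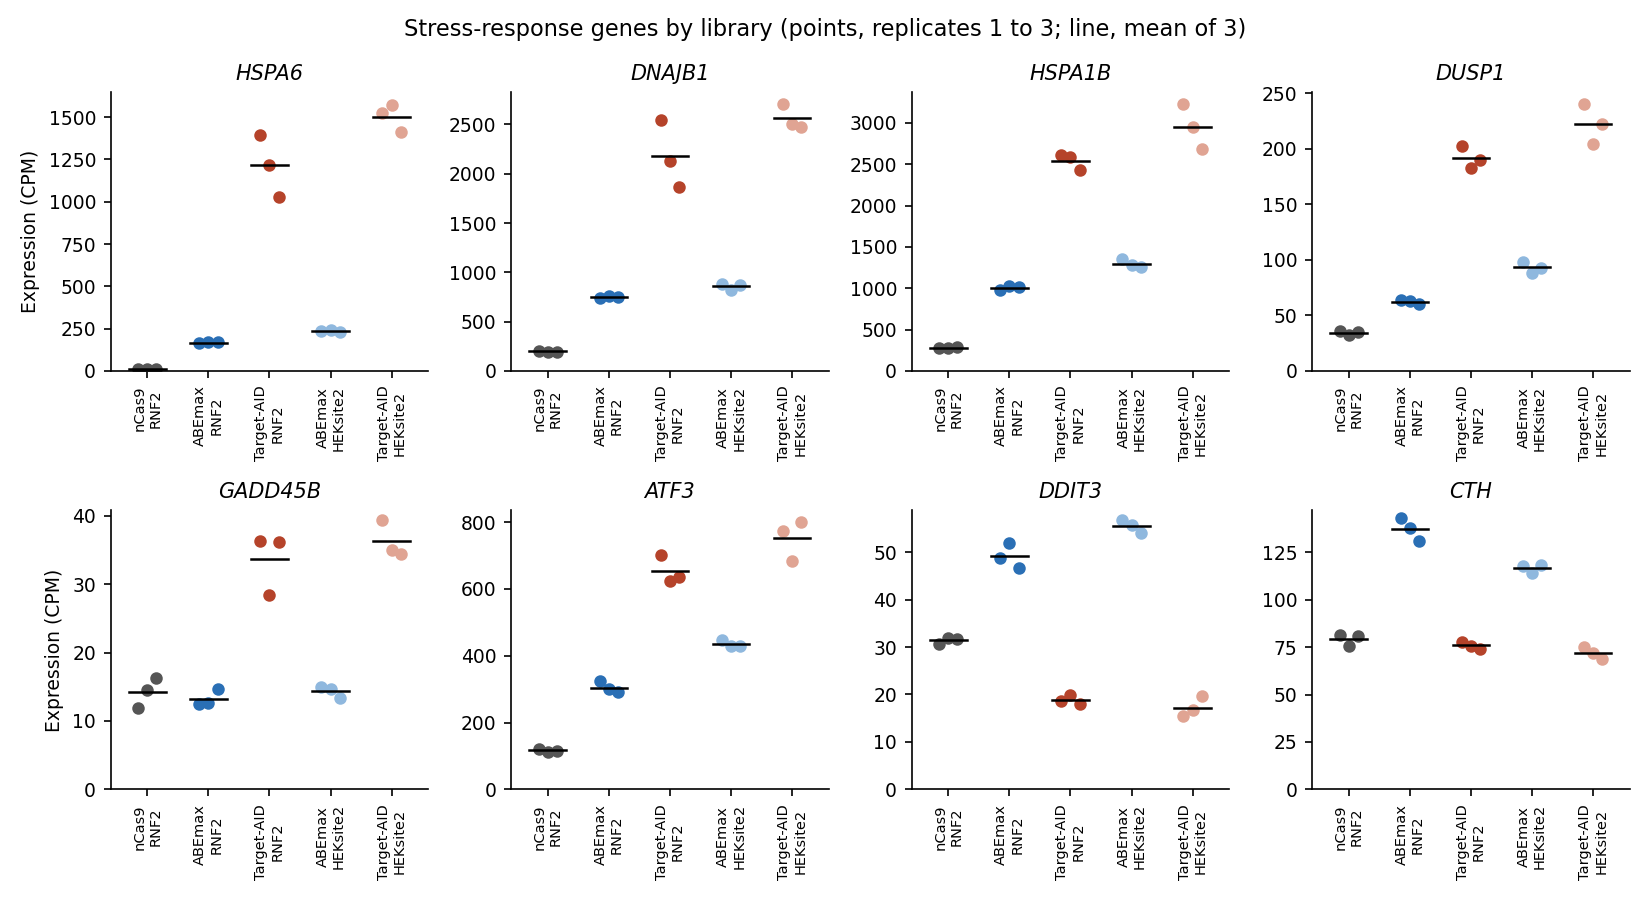
CPM (vertical axis, linear from 0) of 8 stress-response genes in the libraries of nCas9, ABEmax and Target-AID with the RNF2 guide and of ABEmax and Target-AID with the HEKsite2 guide; points are libraries and lines are means of 3. For HSPA6, DNAJB1, HSPA1B, DUSP1 and ATF3 the groups rise from nCas9 through ABEmax to Target-AID, GADD45B is high in both Target-AID groups, and DDIT3 and CTH are highest in ABEmax.

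Promoters are shown for 3 of the stress genes, which differ in whether they hold an exact match to the motif letters searched. The sequences are the 250 bases before the annotated start in RefSeq (GRCh38.p14), 5′ to 3′ on the gene's strand, with the motif in capitals. HSPA6 lies at chr1:161524290-161524539 on the plus strand, HSPA1B at chr6:31827488-31827737 on the plus strand and ASNS at chr7:97872409-97872658 on the minus strand.
HSPA6: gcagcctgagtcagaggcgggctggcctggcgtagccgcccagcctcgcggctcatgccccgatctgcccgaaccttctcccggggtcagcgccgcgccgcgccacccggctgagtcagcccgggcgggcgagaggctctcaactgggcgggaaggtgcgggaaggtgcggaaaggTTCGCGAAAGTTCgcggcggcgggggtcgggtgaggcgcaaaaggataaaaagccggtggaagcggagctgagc
HSPA1B: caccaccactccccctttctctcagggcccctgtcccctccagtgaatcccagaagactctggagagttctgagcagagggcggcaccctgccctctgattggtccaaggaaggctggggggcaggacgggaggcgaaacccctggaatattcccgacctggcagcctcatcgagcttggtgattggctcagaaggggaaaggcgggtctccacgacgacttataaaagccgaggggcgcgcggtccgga
ASNS: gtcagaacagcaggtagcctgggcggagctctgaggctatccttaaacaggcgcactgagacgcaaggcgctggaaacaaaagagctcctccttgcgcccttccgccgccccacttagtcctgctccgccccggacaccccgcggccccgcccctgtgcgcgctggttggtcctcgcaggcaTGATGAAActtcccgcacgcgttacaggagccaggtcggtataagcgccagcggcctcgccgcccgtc
The heat shock element was searched on both strands as 3 alternating GAA and TTC units, starting with either and set 2 free bases apart; the forms can overlap. HSPA6 holds 1, whose first base lies 74 bases before the start. The window of HSPA1B holds none in these strict letters, though it holds a GAA and a TTC unit 2 bases apart. The element was found in 172 of 35116 RefSeq promoter windows of 300 bases (0.49%) and in 54 of the 11437 tested genes that had a window (0.47%), counting a gene if any of its windows matched. Of the heat shock genes with a window it was found in 9 of 32 (28.1%), in 4 of the 14 called higher and in 1 of the 3 called lower. A match is only a match of letters, and the lack of one does not show that HSF1 cannot bind.

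Immediate-early genes are switched on within minutes of a stimulus and encode short-lived regulators. Of 42 tested, 12 rose and 3 fell in Target-AID (median log2 fold change 0.17). Together 35.7% were called, against 26.1% of all tested genes. DUSP1, the phosphatase that inactivates MAP kinases, stood at 203, 183 and 190.3 CPM in Target-AID, 64.2, 62.7 and 60.5 in ABEmax and 36.0, 32.2 and 35.5 in nCas9. The 3 groups did not overlap (log2 fold change between editors 1.62 ± 0.08, adjusted p = 5.58e-20). GADD45B, a stress sensor upstream of p38 and JNK, stood at 36.3, 28.5 and 36.1 CPM in Target-AID against 12.5, 12.6 and 14.6 in ABEmax (1.35 ± 0.13, adjusted p = 3.05e-11). In nCas9 it stood at 11.9, 14.6 and 16.3, overlapping ABEmax. IER5, which acts on HSF1, rose by 1.16, the AP-1 subunit FOSL2 by 1.01, the zinc finger factor KLF6 by 0.86, MYC by 0.77 and JUN by 0.60. FOS moved the other way: 20.2, 16.1 and 15.2 CPM in Target-AID against 22.8, 22.3 and 27.4 in ABEmax (-0.49 ± 0.12, adjusted p = 0.00181). The palindrome TGACGTCA, bound by CREB and ATF factors, was found in windows of 4 of the 31 matched genes of this list, among them DUSP1, and in 3.78% of all matched genes tested.

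The integrated stress response acts through ATF4, which turns on amino acid genes and the factors DDIT3 and ATF3. Of its 43 genes, 8 rose and 14 fell in Target-AID relative to ABEmax (median -0.03), so the list split. Calls covered 51.2% of the list, against 26.1% of all tested genes. ATF3, a repressor induced by many stresses, stood at 703, 623 and 637 CPM in Target-AID, 323, 299 and 291 in ABEmax and 121, 113 and 116 in nCas9 (1.1 ± 0.07 between editors, adjusted p = 5.54e-16). DDIT3, which encodes the pro-apoptotic factor CHOP, went the opposite way, with 18.6, 19.9 and 17.9 CPM in Target-AID, 48.8, 51.9 and 46.8 in ABEmax and 30.7, 31.8 and 31.8 in nCas9 (-1.39 ± 0.08, adjusted p = 4.14e-17). Target-AID lay below nCas9 and ABEmax above it. CTH, the cystathionine lyase that makes cysteine, was at 77.7, 75.6 and 74.2 CPM in Target-AID and 143, 138 and 131 in ABEmax (-0.86 ± 0.07, adjusted p = 4.62e-13), while nCas9, at 75.3 to 81.2, was level with Target-AID. DDIT4, an inhibitor of mTORC1, rose by 0.82, the asparagine synthetase gene ASNS by 0.46, and ATF4 itself fell by 0.28. Further members that fell were the hormone gene FGF21 (-1.73), ATF5 (-1.22) and GDF15 (-0.95), all under 8 CPM; the GDF15 call was lost without Target-AID replicate 1 or ABEmax replicate 1 (adjusted p = 0.0546 and 0.14). The letters TGATGNAA, the core of the ATF4 element, were found in windows of 12 of 33 matched members (36.4%) against 2.69% of the matched genes tested. They were in 4 of 7 called higher, ASNS with its match 68 bases before the start among them, and in 2 of 12 called lower.

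Of 26 genes of the unfolded protein response of the endoplasmic reticulum 12 fell in Target-AID, 13 were not called and 1, the sensor ATF6, rose by 0.20 (median -0.17). The share called was 50.0%, against 26.1% over all tested genes. MANF, a secreted stress-induced factor, stood at 82.3, 83.3 and 93.4 CPM in Target-AID against 119, 113 and 112 in ABEmax (-0.41 ± 0.07, adjusted p = 2.82e-05). The folding chaperones CALR (-0.30), CANX (-0.24, adjusted p = 0.0504 in the fit on 6 libraries) and HSP90B1 (-0.38) and the MANF-like factor CRELD2 (-0.44) fell too. In nCas9 MANF stood at 113 to 122 CPM, overlapping ABEmax. When only the 6 libraries entered the fit, 5 members fell and none rose.

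The lists for RNA surveillance and splicing held more called genes lower than higher. Of 25 factors and known targets of nonsense-mediated decay, the pathway that destroys transcripts with early stop codons, 13 fell, 1 rose and 11 were not called (median -0.21). UPF3B, an adaptor of the pathway, stood at 55.1, 52.1 and 51.6 CPM in Target-AID against 82.8, 81.8 and 80.2 in ABEmax (-0.62 ± 0.08, adjusted p = 6.26e-08). The helicase gene UPF1 (-0.29) and the scaffold gene UPF2 (-0.33) fell with it, as did MAGOH (-0.35) of the exon junction complex. The member that rose, GADD45B, is a transcript degraded by the pathway. Of 20 host genes of small nucleolar RNAs, whose spliced transcripts the pathway usually degrades, 11 fell and none rose (median -0.31). SNHG1 was on this list and on the decay list, so their counts are not independent. SNHG3 stood at 29.2, 26.6 and 25.9 CPM against 43.3, 44.4 and 42.0, and SNHG1 at 93.4, 103 and 101 against 138, 151 and 138. Neither gene overlapped between editors, which held for 33.8% of all tested genes. Among 19 SR splicing factors and CLK kinases 7 fell, none rose and 12 were not called (median -0.15), with SRSF7 at -0.30 and SRSF1 at -0.23. In the fit on 6 libraries the counts lower were 8, 7 and 4 for the 3 lists, and a replicate block gave 11 for the last. With all libraries the shares called were 56.0%, 55.0% and 36.8% in the same order, against 26.1% of all tested genes.

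Cell cycle genes held 1 large difference. CDC45, a part of the replicative helicase, stood at 1389, 1102 and 995 CPM in Target-AID, 175, 178 and 168 in ABEmax and 159, 148 and 152 in nCas9 (2.74 ± 0.08 between editors, adjusted p = 1.30e-27). Nothing else among 45 genes of the G1/S phase and DNA replication came near: 10 rose and 11 fell (median -0.05; 6 and 7 in the fit on 6 libraries), the next being CDT1, a licensing factor, at -0.51 and DSCC1, which loads the sliding clamp, at 0.50. GFP, miniABEmax-V82G and SpACE averaged 102 to 149 CPM for CDC45. Among 42 genes of the G2/M phase 12 fell and none rose (median -0.07; 13 and 1 without Target-AID replicate 3), led by CDC20, the activator of the anaphase-promoting complex, with 104, 116 and 137 CPM in Target-AID against 163, 166 and 162 in ABEmax (-0.46 ± 0.07, adjusted p = 5.93e-06). PLK1 (-0.31) and the spindle protein gene PRC1 (-0.33) fell as well. Called members were 46.7% of the G1/S and replication list and 28.6% of the G2/M list, against 26.1% of all tested genes.

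Genes of base excision repair, which removes damaged or deaminated bases and seals the gap, split evenly, with 4 of 23 higher and 4 lower (median 0.02; 3 and 5 without Target-AID replicate 3). UNG, the uracil glycosylase, stood at 157, 159 and 187 CPM in Target-AID against 143, 126 and 121 in ABEmax (0.36 ± 0.07, adjusted p = 0.000217). TDG, which removes T and U opposite G, rose by 0.43 and the glycosylase gene NEIL2 by 0.39. The downstream scaffold XRCC1 stood at 40.6, 44.2 and 43.0 CPM against 63.4, 62.7 and 61.7 (-0.55 ± 0.08, adjusted p = 7.50e-07), and LIG1 (-0.42) and POLB (-0.29) fell. In mismatch repair 2 of 15 rose and 2 fell (4 without ABEmax replicate 3). The shares called were 34.8% in base excision repair and 26.7% in mismatch repair, against 26.1% of all tested genes. Of the 12 endogenous nucleotide deaminase genes tested, ADAT1 and ADAT2, which edit transfer RNA, rose by 0.36 each and ADAT3 fell by 0.46. None of these 3 calls was stable. That of ADAT3 was lost in the fit on 6 libraries (adjusted p = 0.125), with DESeq2, without each Target-AID library (0.0671 without replicate 3) and without ABEmax replicate 3, where the difference was -0.22 (adjusted p = 0.428). The ADAT1 and ADAT2 calls were lost without Target-AID replicate 2 (adjusted p = 0.0514 and 0.0506) and that of ADAT2 also without ABEmax replicate 1 (0.27, adjusted p = 0.12).

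TNFRSF10B, the death receptor DR5, was the p53-list gene with the largest rise, at 491, 418 and 369 CPM in Target-AID, 134, 146 and 122 in ABEmax and 137, 128 and 122 in nCas9 (1.67 ± 0.09, adjusted p = 3.08e-19). The p53 targets as a list were 4 higher and 6 lower of 27, with 3 lower without Target-AID replicate 1 and 2 without ABEmax replicate 1. PLK2, a polo-like kinase gene of this list, differed by -1.1. ANKRD1, a target of YAP and TEAD, stood at 25.6, 25.4 and 24.1 CPM in Target-AID, 4.17, 3.62 and 4.88 in ABEmax and 0.696, 0.499 and 0.897 in nCas9, rising by 2.57 ± 0.16 (adjusted p = 1.20e-16). GFP averaged 14.9 CPM for ANKRD1. Of the 23 genes of that pathway 6 rose and 1 fell (3 rose in the fit on 6 libraries). In the BCL2 family 4 of 17 rose, among them the anti-apoptotic MCL1 (0.39) and the pore former BAK1 (0.57), and 2 fell (1 without Target-AID replicate 1 or ABEmax replicate 1 or 2). Shares called were 37.0% of p53 targets, 30.4% of YAP and TEAD genes and 35.3% of the BCL2 family. Over all tested genes the share was 26.1%.

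Lists of housekeeping machinery depended on the library that stood apart. With all libraries 2 of 79 cytosolic ribosomal protein genes were called, both lower (median -0.05), and without Target-AID replicate 3 there were 39, all lower (median -0.17). RPL11, for example, stood at 538, 531 and 595 CPM in Target-AID against 635, 610.2 and 608 in ABEmax; its call was lost without Target-AID replicate 1 or 2, without ABEmax replicate 1 and in the fit on 6 libraries (adjusted p = 0.167). Members of complex I of the respiratory chain were 3 higher and 2 lower of 37, and 2 and 12 without that library. Mitochondrial ribosomal proteins went from 4 higher and 7 lower of 75 to 2 and 17, whereas leaving out Target-AID replicate 1 gave 11 and 3. Proteasome subunits went from 1 higher and 12 lower of 32 to 0 and 19, but leaving out Target-AID replicate 1 or 2 gave 5 and 4 lower, and leaving out ABEmax replicate 1 or 2 gave 4 and 6. PSMC4, a proteasomal ATPase, kept its call in every fit, at 112, 118 and 132 CPM against 161, 166 and 153 (-0.41 ± 0.06, adjusted p = 3.07e-06). Over all tested genes 26.1% were called with all libraries and 26.8% without Target-AID replicate 3.

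Replication-dependent histone genes, whose transcripts lack a poly(A) tail and are read by total RNA libraries, were 11 higher and 1 lower of 45 with all libraries and 3 higher and 2 lower without Target-AID replicate 3. Leaving out Target-AID replicate 1 gave 20 higher and leaving out ABEmax replicate 2 gave 7. With all libraries 26.7% of the histone genes were called, against 26.1% of all tested genes. HIST1H1E, a linker histone, stood at 1585, 1651 and 2289.9 CPM in Target-AID against 1247, 1281 and 1236 in ABEmax. It was higher in all 3 Target-AID libraries and highest in replicate 3, and its difference was 0.55 ± 0.10 with that library and 0.37 without it (adjusted p = 0.000687). With the HEKsite2 guide no histone gene of the 45 was called higher and 6 were lower. Of all 14613 tested genes, 2036 were called higher and 1758 lower with that guide. The share of histone genes called lower was thus close to that of all tested genes. RN7SL1 and RPPH1, given above, moved with Target-AID replicate 3 of the RNF2 guide, and their part in the histone counts was not tested.

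**Figure D3:**
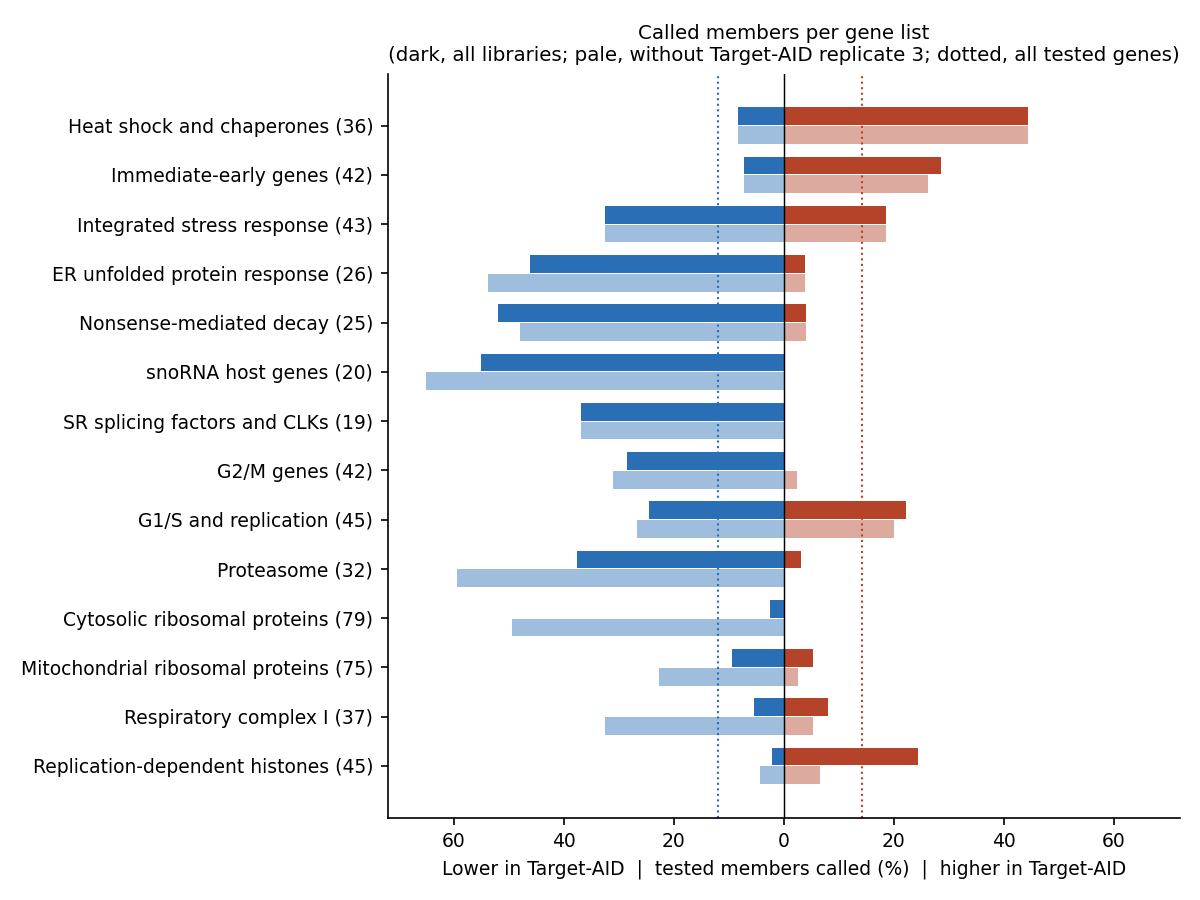
Share of the tested members of 14 gene lists that were called higher (right, red) or lower (left, blue) in Target-AID than in ABEmax with the RNF2 guide, in percent; dark bars use all libraries, pale bars leave out Target-AID replicate 3, and dotted lines mark the shares over all tested genes, 14.2% higher and 11.9% lower. Dark and pale bars are alike for the stress, decay and splicing lists and differ for ribosomal proteins, complex I, the proteasome and histones.

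In the remaining lists the share of tested members called lay between 0 and 35.5% (glycolysis and hypoxia), against 26.1% over all tested genes. Of 22 oxidative stress genes of the NRF2 pathway 2 rose and 4 fell (1 rose without Target-AID replicate 3 or ABEmax replicate 1 or 2), of 29 cholesterol synthesis genes 3 and 5 (3 fell without Target-AID replicate 1), of 31 glycolysis and hypoxia genes 7 and 4 (2 fell without Target-AID replicate 1 or 2 or ABEmax replicate 1), of 22 aminoacyl-tRNA synthetase genes 3 and 3, of 25 interferon-stimulated genes 2 and 2 and of 16 NF-kB and cytokine genes 2 and 2. The fallen interferon genes numbered 0 without Target-AID replicate 1 and 1 without Target-AID replicate 2 or ABEmax replicate 1 or 2, and 1 NF-kB gene rose without ABEmax replicate 2. None of 5 metallothionein genes was called. The cytokine gene LIF (-1.28) and the adhesion receptor gene ICAM1 (-1.67) were both under 8 CPM. Among 24 members of Polycomb repressive complex 1 and its variants, 6 rose and 2 fell (1 without Target-AID replicate 2 or 3), with CBX6 (0.51), PHC2 (0.32) and RNF2 itself among the 6. Of the 10 HEK293 markers tested 2 fell (VIM and CDH2), of 7 mesenchymal markers 1 rose and 1 fell, and none of 2 erythroid markers was called.

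The comparison was repeated between the same editors with the HEKsite2 guide, in libraries that share none with the RNF2 set. There 3794 genes (26.0%) were called, 2036 higher and 1758 lower. Of the 3810 genes called with the RNF2 guide, 3601 (94.5%) had the same sign, 2282 were called in the same direction and 14 in the opposite one. Of the 10803 genes not called with the RNF2 guide, 7394 (68.4%) had the same sign. The 2282 shared calls were 59.9% of those with the RNF2 guide and 60.2% of those with HEKsite2. Across genes, which are not independent replicates, the log2 fold changes of the 2 comparisons correlated with Pearson r = 0.907 and Spearman rho = 0.648, and with r = 0.589 over the 13842 genes below 2-fold with both guides. HSPA6 differed by 2.66 and DNAJB1 by 1.58 with the HEKsite2 guide, CDC45 by 2.90, NRP2 by -5.10 and DDIT3 by -1.69. Heat shock genes were 14 higher and 3 lower, unfolded protein response genes 0 and 14, and proteasome genes 0 and 19.

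**Figure D4:**
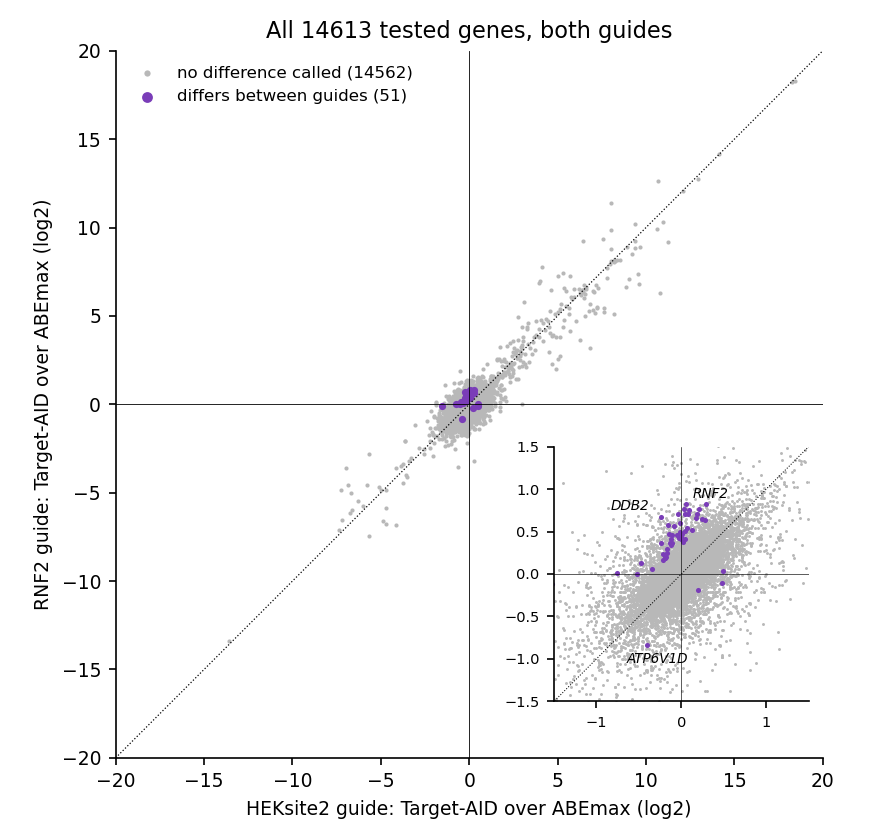
Log2 fold change of Target-AID over ABEmax with the RNF2 guide (vertical axis) against that with the HEKsite2 guide (horizontal axis) for all 14613 tested genes, with the dotted line marking equal values and an inset enlarging the centre. Most points far from the origin lie near the line, and the 51 genes in purple, whose difference depended on the guide, lie in the centre, mostly above the line.

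The difference between editors depended on the guide for 51 genes (0.349%) in the test of that difference itself. The number was 8 when only the groups compared were fitted, 106 without the filter on low counts and 29 (without Target-AID HEKsite2 replicate 2) to 63 when 1 library was left out; it was 30 and 31 without ABEmax RNF2 replicates 2 and 3 and 31 without ABEmax HEKsite2 replicate 1. For 47 (0.322%) it was higher with the RNF2 guide and for 4 (0.0274%) lower. RNF2, the targeted gene on chromosome 1 (185045364 to 185102608, plus strand, GENCODE 29 on GRCh38), was one of the 3 largest among those higher. With the RNF2 guide it stood at 69.8, 70.3 and 61.8 CPM in Target-AID, 42.2, 36.2 and 35.3 in ABEmax and 34.6, 42.0 and 33.2 in nCas9. Target-AID overlapped neither of these groups (0.83 ± 0.08 against ABEmax, adjusted p = 1.09e-10). With the HEKsite2 guide RNF2 averaged 71.4 ± 3.52 CPM in Target-AID and 68.6 ± 4.64 in ABEmax (SD, n = 3 libraries each), and the difference of 0.06 was not called. The test of the difference between guides gave 0.77 ± 0.11 on the log2 scale (adjusted p = 7.69e-05).

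The level of RNF2 across all 11 groups showed which libraries differed. In order of their means it stood at 36.6 CPM in nCas9, 37.9 in ABEmax and 47.9 in miniABEmax-V82G with the RNF2 guide, then at 62.4 in SpACE and 67.3 in Target-AID with that guide. The 5 HEKsite2 groups averaged 64.1 to 71.9 and GFP 78.9 ± 7.34. Thus ABEmax, miniABEmax-V82G and nCas9 with the RNF2 guide were low, while Target-AID and SpACE with that guide were near the libraries with the other guide. The nCas9 and ABEmax libraries overlapped each other, as did those of Target-AID with the HEKsite2 groups.

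Part of this arrangement, the levels of nCas9, ABEmax and Target-AID, was counted over the other genes. Of the 47 genes, 34 had means in both nCas9 and ABEmax with the RNF2 guide below GFP and below all HEKsite2 groups, and in 25 of these 34 Target-AID lay within the range of those groups. Over all 14613 tested genes 873 (5.97%) met the first condition and 626 (4.28%) both. The 47 genes were called for a difference that low ABEmax levels with the RNF2 guide help to make, so their count is a description. The genes with the smallest adjusted p of the guide difference, named after their values were seen, were EIF2S2, which encodes a subunit of the initiation factor eIF2, and DSN1, a kinetochore protein gene. EIF2S2 averaged 267 ± 2.63 CPM in Target-AID, 178 ± 3.41 in ABEmax and 174 ± 13.0 in nCas9 with the RNF2 guide (SD, n = 3 libraries each). In GFP and the HEKsite2 groups it averaged 241 to 300.02. DSN1 averaged 89.0 ± 1.03, 52.3 ± 2.34 and 53.4 ± 2.23 CPM in the same 3 groups and 71.4 to 90.4 in GFP and the HEKsite2 groups. AARS, the alanyl-tRNA synthetase gene, averaged 333 ± 18.8, 198 ± 2.75 and 196 ± 4.90 CPM in those groups and 248 to 376 in GFP and the HEKsite2 groups. Its difference between editors was 0.75 with the RNF2 guide and 0.09 with HEKsite2. These calls for RNF2, EIF2S2, DSN1 and AARS held in all 18 alternative fits of the guide difference.

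**Figure D5:**
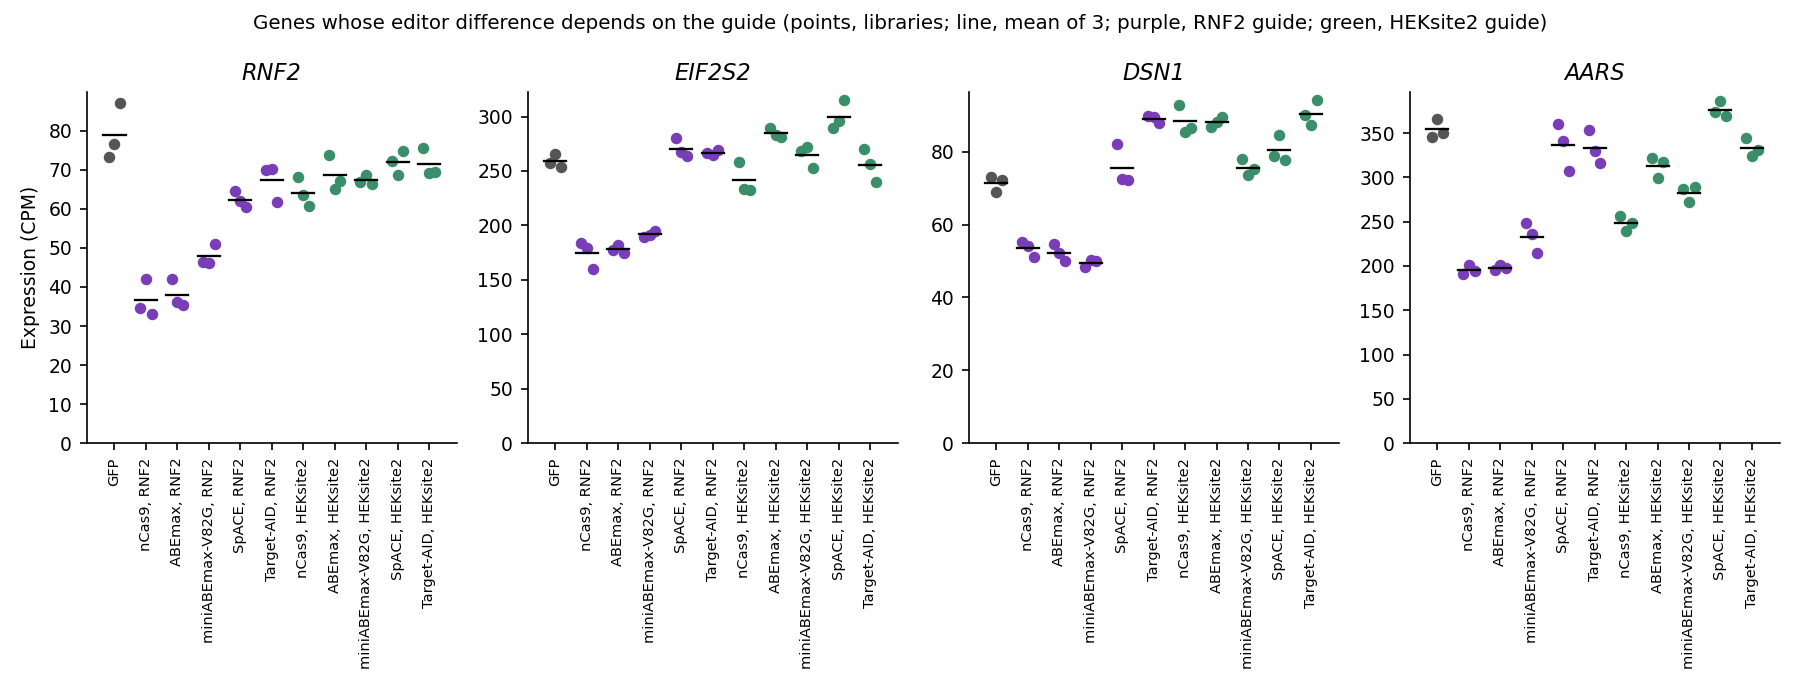
CPM (vertical axis, linear from 0) of RNF2, EIF2S2, DSN1 and AARS in all 11 groups, grey for GFP, purple for the RNF2 guide and green for the HEKsite2 guide; points are libraries and lines means of 3. Among the purple groups nCas9, ABEmax and miniABEmax-V82G lie low and SpACE and Target-AID lie near the green groups. For AARS, however, miniABEmax-V82G with the RNF2 guide overlaps nCas9 with the HEKsite2 guide.

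Other guide-dependent genes were less stable. DDB2, which recognises ultraviolet damage, stood at 28.3, 33.5 and 31.3 CPM in Target-AID and 20.7, 21.7 and 15.7 in ABEmax with the RNF2 guide, a difference of 0.68, against -0.24 with HEKsite2. TPCN2, a lysosomal channel gene, and MCM7, a helicase subunit gene, differed by 0.71 and 0.35 with the RNF2 guide and by -0.04 and -0.12 with HEKsite2. In the opposite direction ATP6V1D, a subunit of the vacuolar proton pump, fell by 0.83 with the RNF2 guide and by 0.40 with HEKsite2, and WDR44, an effector of RAB11, differed by -0.19 with the first and 0.19 with the second. The other 2 of the 4 genes lower with the RNF2 guide, named after their values were seen, were ELK4, an ETS transcription factor gene (-0.11 with the RNF2 guide and 0.48 with HEKsite2), and NAA16, an acetyltransferase subunit gene (0.04 and 0.49). Among the genes higher with the RNF2 guide, SNORD52, a small nucleolar RNA (-0.12 and -1.52), and SUV420H2, a histone methyltransferase gene (0.01 and -0.76), were also named after their values were seen. These 4 genes were not called between editors with the RNF2 guide, and all 4 were called with HEKsite2. The call of the guide difference was lost in 6 of 18 alternatives for DDB2, 8 each for ATP6V1D and ELK4, 11 each for WDR44 and NAA16 and 1 each for MCM7 and SUV420H2, and in 1 of 17 for TPCN2 and 11 of 17 for SNORD52.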

How the data were processed

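RNA was read with a stranded total RNA kit, per the labels' protocols. The deposited table holds whole-number counts per gene symbol for 33 libraries, which the authors made; the submitters' processing notes name STAR, GATK 3.8.1, Picard 2.7 and GRCh38 without roles. No source used here names the counting tool, annotation or use of strand, so overlapping and antisense genes cannot be told apart. Of 26475 genes, 14613 passed edgeR's filter (filterByExpr). Library totals were 6790209 to 11200406, and intervals on ratios (95%) and the floor of 3 counts cover counting error only. Counts were scaled by TMM and fitted with edgeR 4.0.16 (quasi-likelihood, 11 group means, 22 residual degrees of freedom, R 4.3.3), and called at an adjusted p under 0.05, two-sided. CPM are scaled by TMM, SE is that of the log2 fold change. Promoters and positions came from RefSeq and GENCODE 29. Named genes were the 10 largest rises and falls among called genes of mean log2 CPM 1 or more without overlap, leaving out clone, antisense and reading-frame names, up to 6 called members per list by p, the 3 largest guide differences each way under those same conditions, RNF2, and globin and growth hormone genes; list members were also named from their list. The members and lists were chosen with earlier results of these data known. The fit was tested on simulated data. Alternatives were RLE scaling, no filter, DESeq2 1.42.0, a replicate block, the compared groups alone, removal of 8-fold genes and of each library. Figures used Python 3.11.15 and matplotlib 3.10.9.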

Additional observations from a re-analysis of the deposited data

Results flagged for a closer look

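The test of the difference between guides itself singled out 13 of the genes named, as a log2 difference of Target-AID over ABEmax with the RNF2 guide minus that with the HEKsite2 guide (edgeR quasi-likelihood test, adjusted over all genes). It was 1.40 for SNORD52, 0.92 for DDB2, 0.77 for RNF2, 0.76 for SUV420H2, 0.74 for TPCN2, 0.74 for EIF2S2, 0.73 for DSN1, 0.66 for AARS and 0.47 for MCM7. It was -0.59 for ELK4, -0.45 for NAA16, -0.43 for ATP6V1D and -0.38 for WDR44, whose calls were lost in 8, 11, 8 and 11 of 18 alternatives.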

How the results depend on the processing

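None of the 186 named genes followed for the RNF2 guide changed sign in any alternative run for it. ELK4, NAA16, SNORD52 and SUV420H2 were not among them. Among the lists, the mitochondrial ribosomal proteins turned from 4 higher and 7 lower to 11 and 3, and the cytosolic ones from 0 and 2 to 1 and 0, without Target-AID replicate 1. The number of genes called for Target-AID against ABEmax with the RNF2 guide was 2070 when only the groups compared were fitted, 3288 with DESeq2, and 3042 to 3973 when 1 library was left out. Leaving out 1 library gave 2957 to 3453 genes for the HEKsite2 guide, 4030 to 5567 for Target-AID against nCas9 and 827 to 1311 for ABEmax against nCas9, the lowest without nCas9 replicate 2, and 1086 without ABEmax replicate 3. The guide difference was called for 106 genes without the filter, 8 with only the groups compared, and 29 to 63 without 1 library: 29 without Target-AID HEKsite2 replicate 2, 30 and 31 without ABEmax RNF2 replicate 2 or 3, and 31 without ABEmax HEKsite2 replicate 1. The cause was not tested. Of 186 named genes, 142 kept their call for the RNF2 guide in all alternatives run for them; 32 of 182 lost it with only the groups compared. Replicate numbers did not pair the libraries: deviations of same-numbered libraries correlated at -0.05, 0.02 and -0.11, and not every library correlated best with its own number. With a replicate block 4042 genes were called.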
